A study of Apis mellifera with 12 samples.

Results

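The miRNAs ame-miR-7, ame-miR-263 and ame-miR-263b, whose relatives shape sensory organs in flies, were followed in the brains of honey bee (Apis mellifera) workers after RNA interference against vitellogenin. They were taken by name from the 168 miRNAs on the array, and all 3 of 3 were found in every scanner table and in the authors' table of processed values. The 12 samples were brain pools, 6 from workers injected with double-stranded RNA against vitellogenin (dsVg) and 6 from sham controls injected with double-stranded RNA against green fluorescent protein (dsGFP). All bees were injected as newly emerged adults, in the abdomen, with 2 µL at 10 µg/µL, and all were 15 days old at sampling. Each pool combined the small RNA of 5 bees, 200 ng from each, and was hybridised to 1 array. The source names call the bees foragers, and no untreated bees were measured. The dsRNA was given outside the brain, so the knockdown is not specific to it, and the level of the vitellogenin transcript was not analysed here.

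A miRNA is a short RNA that guides a silencing complex to messenger RNAs, mainly through pairing of its bases 2 to 8, the seed. In flies, miR-7 is switched on in newly formed photoreceptors and in sensory precursors, where it acts with EGF receptor and Notch signalling and represses the transcription factor Yan. The fly relatives miR-263a and miR-263b keep the bristles between the facets of the eye alive by repressing the death gene hid, and their vertebrate kin, the miR-183 family, work in hair cells and photoreceptors. These roles come from other species, and none is a result of the arrays.

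The target sequences printed in the scanner tables, 5′ to 3′, are shown because the relation between the 3 miRNAs bears on what each probe can tell. Capitals mark the seed, bases 2 to 8.
miR-7: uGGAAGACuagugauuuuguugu
miR-263: gUAAAUGGcacuggaagaauucac
miR-263b: cUUGGCACuggaagaauucac
No other miRNA on the array had the seed of any of the 3 (0 for each). The next lines show the same 2 related miRNAs with their longest shared run in capitals.
miR-263: guaaaUGGCACUGGAAGAAUUCAC
miR-263b: cuUGGCACUGGAAGAAUUCAC
The shared run is 19 bases long and ends both sequences. It starts at base 6 of miR-263 and at base 3 of miR-263b, so the listed seeds differ although most of the sequence is the same. The median miRNA on the array shares at most 8 bases in a row with any other, and only these 2 of 168 reach 19. How much of each signal comes from the other miRNA was not tested. With miR-7, either of them shares 7 bases, the start of miR-7 and the middle of the other (UGGAAGA), and miR-3794 holds the same 7.

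All 3 matched 1 gene each in the RefSeq gene table of assembly Amel_HAv3.1, under the symbols Mir7, Mir263a and Mir263b. The 3 genes lie on separate chromosomes. Mir7 lies within the span of the protein-coding gene LOC409007 and next to 5-HT2alpha, Mir263b lies within that of LOC100578609, and Mir263a overlaps no listed gene. No miRNA gene lies within 50 kb of Mir7, and 1 lies within that distance of each of the other two, Mir3773 beside Mir263a and Mir3724 beside Mir263b. The table gives no strand, so a shared transcript cannot be read from it.

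All 3 miRNAs gave a signal above background in every pool. Detection required the mean of a miRNA's 18 spots to lie above 95% of the 608 empty spots on the same array (the detection threshold). The scanner intensity of miR-7, in linear units with the background included, was 2698 at the lowest, 3605 at the median and 15613 at the highest of the 6 dsGFP pools. In the 6 dsVg pools it was 723, 7026 and 15146. Of the dsVg pools, 4 lay within the dsGFP range, and pool 5 (723) and pool 1 (1343) lay below it. The highest dsGFP value was that of pool 3. In dsVg pool 5 miR-7 was only 1.17 times the detection threshold. On the other arrays it was 4.14 times (dsVg pool 1) to 193 times (dsGFP pool 3) that threshold. With a threshold at the mean plus 3 SD of the empty spots, miR-7 was detected on 11 arrays, not 12. On the array of dsVg pool 5 the median empty spot (478) was brighter than the median miRNA (352). The same order held in dsGFP pool 2 and in dsVg pools 4 and 6.

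The intensity of miR-263 was 705, 829 and 2006 (lowest, median, highest) in dsGFP pools and 523, 1130 and 2723 in dsVg pools. That of miR-263b was 822, 892 and 2206 in dsGFP pools and 831, 1372 and 2631 in dsVg pools. Both were lowest relative to the empty spots in dsVg pool 1, at 1.61 and 2.56 times the threshold. Both were detected on all 12 arrays at either threshold. These intensities are not scaled between arrays, so they describe each array's signal and not the amount of RNA.

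**Figure D1:**
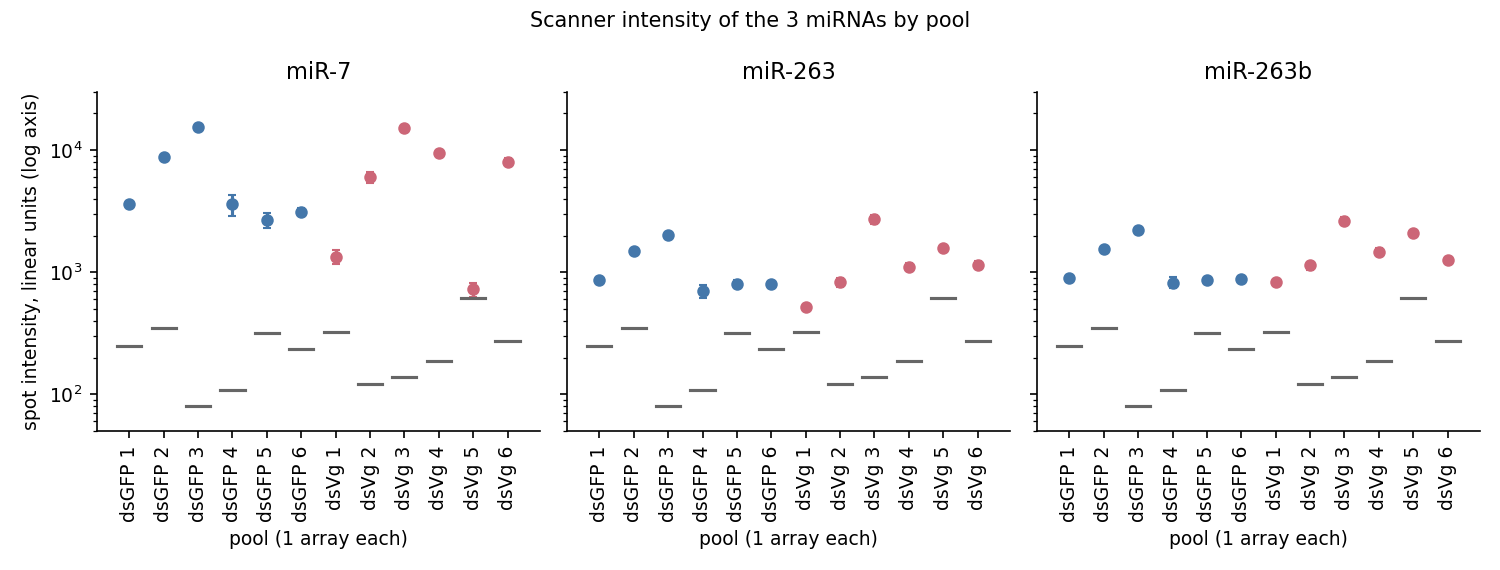
Mean scanner intensity of each miRNA by pool on a log axis, with bars for the SD of its 18 spots and a grey line for the 95th percentile of the empty spots of that array. Blue points are dsGFP pools and red points dsVg pools. In dsVg pool 5 miR-7 (723) lies just above its line (621), while miR-263 (1576) and miR-263b (2101) of the same array do not.

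Within an array the spots mostly agreed closely. The SD of the 18 spots was 7.07% of their mean for miR-7, 7.05% for miR-263 and 6.16% for miR-263b at the median over arrays. The largest value, for miR-7, was found in dsGFP pool 4.

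The place of each miRNA in the order of brightness, which describes signal and not abundance, was steady in most pools. Counted from the brightest of 168, miR-7 ranked from 6 (dsGFP pool 3) to 14 (dsVg pool 1) in 11 pools and 30 in dsVg pool 5. For miR-263 the rank ran from 19 to 30 and for miR-263b from 16 to 29. In dsVg pool 5 the order was turned: miR-263b ranked 16, miR-263 ranked 19 and miR-7 ranked 30.

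The arrays themselves were not uniform. The number of detected miRNAs was 49 to 165 in dsGFP pools and 34 (pool 5) to 168 (pool 1) in dsVg pools. Over the 33 miRNAs detected on all arrays, the mean correlation of an array with the others was 0.930 to 0.962 for 10 pools, 0.920 for dsVg pool 1 and 0.790 for dsVg pool 5. The scanner tables of dsGFP pool 1 (a median in place of a mean) and dsVg pool 5 (whole numbers only) also differ in format from the rest. Results are therefore given with and without dsVg pool 5.

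The question of the comparison was whether the brain's miRNAs differ after the knockdown. After background correction and quantile normalization, which gives all arrays the same distribution of values, the log2 signal of miR-7 was 11.99, 12.41 and 13.49 (lowest, median, highest) in dsGFP pools. In dsVg pools it was 9.34, 12.55 and 13.21. The median was slightly higher after knockdown, whereas the mean was lower because of pool 5. The means were 12.45 ± 0.55 and 12.03 ± 1.41 (SD, n = 6 each). The difference was -0.42 (SE 0.57, 95% interval -1.66 to 0.82), with a limma adjusted p = 0.822 over 84 tested miRNAs and a two-sided exact permutation p = 0.649. Without dsVg pool 5 the dsVg mean was 12.57 ± 0.57 (SD, n = 5) and the difference 0.12 (limma adjusted p = 0.937). The direction of miR-7 thus rested on 1 pool, in which it lay near the detection threshold.

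For miR-263 the log2 signal was 9.34, 9.80 and 10.00 in dsGFP pools and 9.48, 9.87 and 10.65 in dsVg pools. Only dsVg pool 5, the highest, lay outside the control range. The means were 9.75 ± 0.22 and 9.93 ± 0.39 (SD, n = 6 each). The difference was 0.18 (SE 0.18, 95% interval -0.21 to 0.57), with a limma adjusted p = 0.772 and an exact permutation p = 0.381. It was 0.036 without dsVg pool 5 (limma adjusted p = 0.937).

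For miR-263b the log2 signal was 9.48, 9.97 and 10.51 in dsGFP pools and 9.74, 10.25 and 11.08 in dsVg pools. Pools 1 and 5 of the dsVg group lay, both at 11.08 because quantile normalization gives equal ranks equal values, above all control pools, and the other 4 lay within the control range. The means were 10.03 ± 0.37 and 10.36 ± 0.61 (SD, n = 6 each). The difference was 0.32 (SE 0.27, 95% interval -0.27 to 0.92), with a limma adjusted p = 0.772 and an exact permutation p = 0.294. It was 0.18 without dsVg pool 1 or without pool 5, and -0.043 without both.

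None of the 3 passed the adjusted threshold of 0.05, and none had an unadjusted limma p under it (0.479, 0.332 and 0.262, with the exact permutation p-values above). Over all 84 tested miRNAs, limma called 0% at the adjusted threshold and 3.57% (3 miRNAs) at an unadjusted p under 0.05. The smallest p that the 924 assignments of pools to groups can give is 0.00216. The intervals still allow a change of miR-7 from 0.317-fold to 1.77-fold, of miR-263 from 0.866-fold to 1.48-fold and of miR-263b from 0.827-fold to 1.89-fold. On the size of these differences miR-7 ranked 16, miR-263b ranked 22 and miR-263 ranked 35 among the 84.

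**Figure D2:**
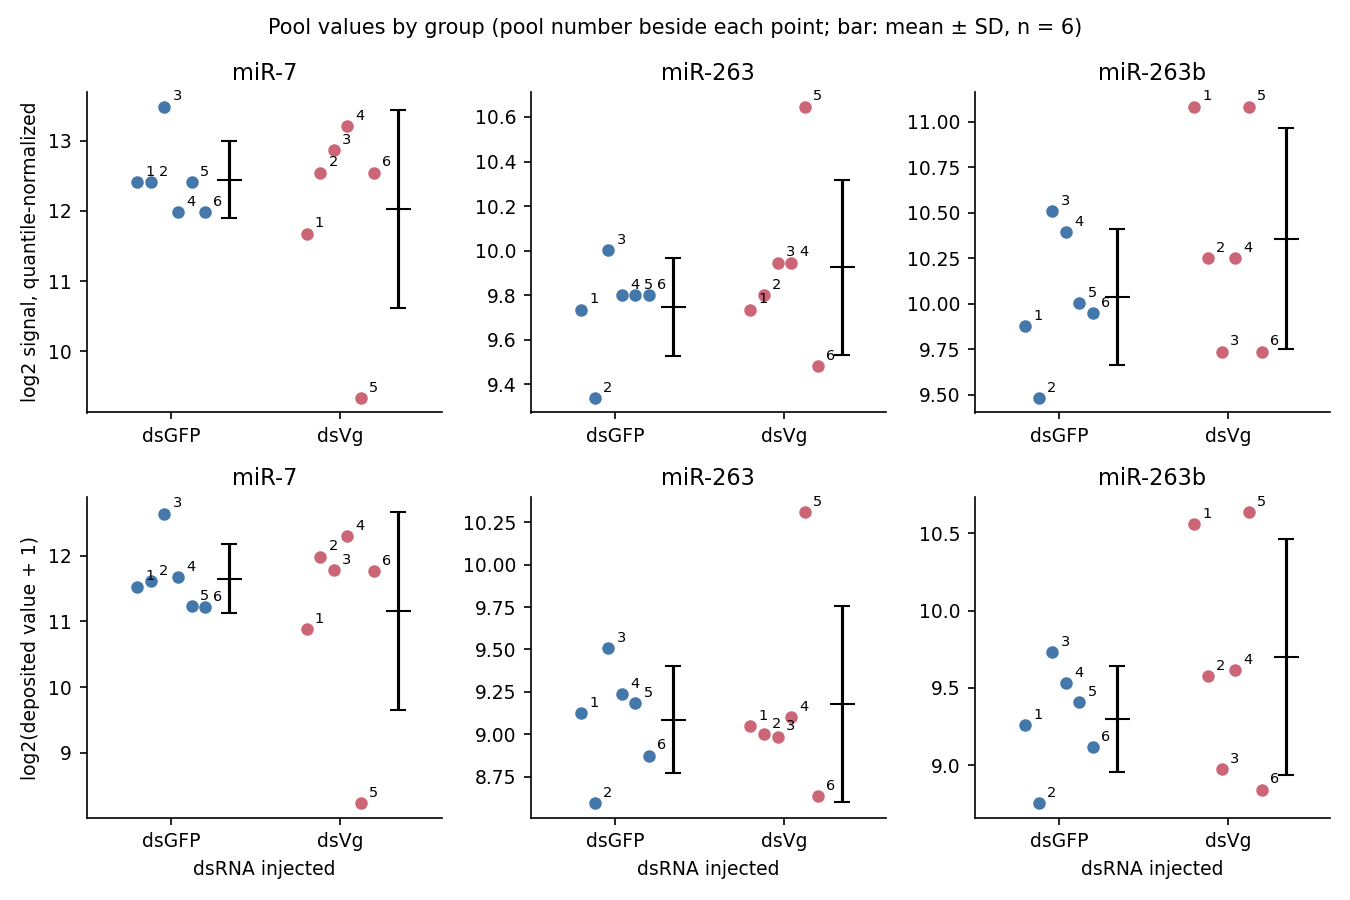
Values of each pool by group, as quantile-normalized log2 signal (top) and as log2 of the authors' deposited value plus 1 (bottom). Numbers beside the points are pool numbers, and bars give the mean ± SD of 6 pools. Pool 5 of the dsVg group is the lowest for miR-7 and the highest for miR-263 on both scales, and pools 1 and 5 are the highest for miR-263b.

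The authors' processed values, whole numbers on a linear scale, gave mean differences of the same direction on the log2 scale and the same outlying dsVg pools. The medians of miR-263 went the other way, at 519.5 in dsVg pools against 568.5 in dsGFP pools. For miR-7 they ran from 2373 to 6364 in dsGFP pools and from 1891 to 5032 in dsVg pools other than pool 5, where the value was 300. For miR-263 they ran from 385 to 728 in dsGFP pools, and in the dsVg group pool 5 held 1270 against 396 to 548 in the other 5. For miR-263b they ran from 431 to 849 in dsGFP pools, and pools 1 and 5 of the dsVg group held 1508 and 1592 against 458 to 784 in the other 4. On the log2(value + 1) scale the differences were -0.49 (SE 0.57) for miR-7, 0.093 (SE 0.27) for miR-263 and 0.40 (SE 0.32) for miR-263b, with limma adjusted p-values of 0.707, 0.935 and 0.652.

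The size of a difference depended on the scaling between arrays, in part through a shift of all miRNAs together. The median over the 84 miRNAs was 0.025 after quantile normalization, 0.15 without normalization between arrays, -0.037 after scaling to the 75th percentile of all miRNAs and -0.31 after scaling to that of the miRNAs detected on all arrays. Relative to this median miR-7 lay at -0.44 after quantile normalization, -0.43 without normalization, -0.64 with cyclic loess and -0.58 in the authors' values. Relative to it miR-263b lay at 0.30, 0.27, 0.17 and 0.31 under the same settings. For miR-263 the values were 0.15, -0.0049, -0.088 and 0.0070, so that its direction is not settled even relative to the other miRNAs.

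**Figure D3:**
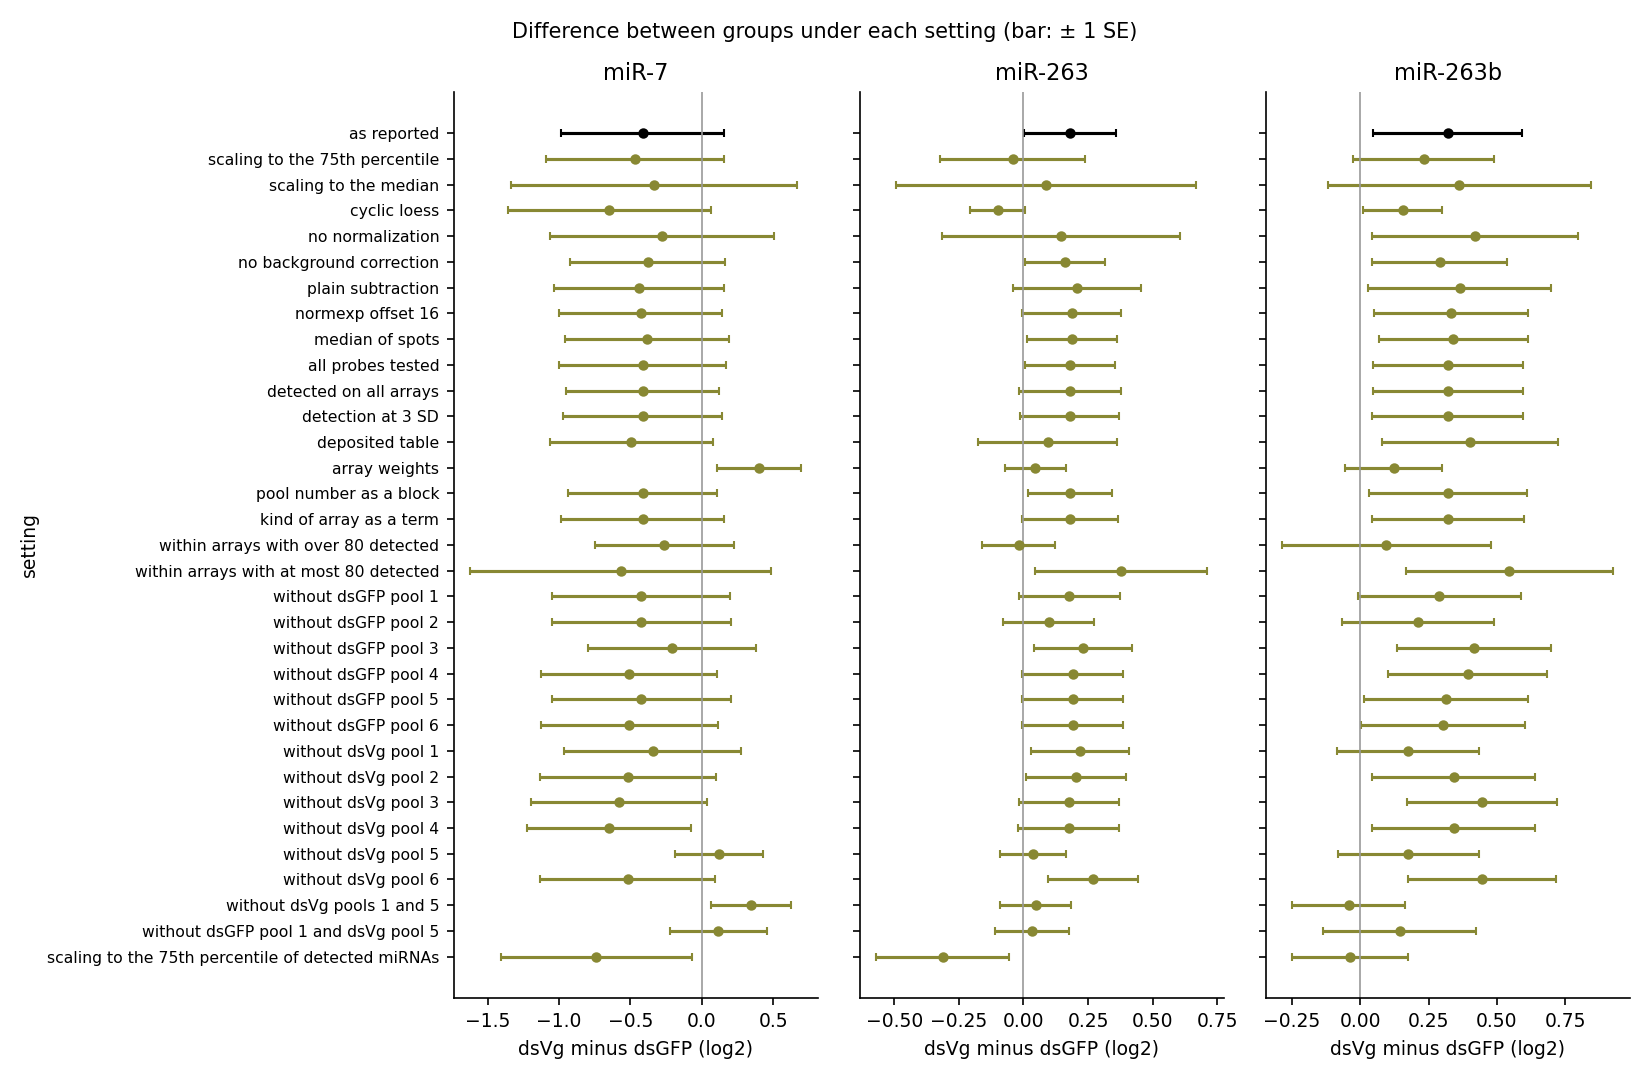
Difference between groups (dsVg minus dsGFP, log2) of each miRNA under each setting, with bars of 1 SE. The black point is the value as reported (-0.42, 0.18 and 0.32). The difference of miR-7 crosses 0 where dsVg pool 5 is left out (0.12) or weighted down (0.40), and that of miR-263b lies at or below 0 without dsVg pools 1 and 5 (-0.043) and after scaling to the 75th percentile of detected miRNAs (-0.038).

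The spread between pools was wider after knockdown for all 3. The SD in dsVg pools was 2.57 times that in dsGFP pools for miR-7, 1.79 times for miR-263 and 1.63 times for miR-263b. This was common on these arrays, since 56 of 84 tested miRNAs had the larger SD in the dsVg group, at a median ratio of 1.48, and 46 of 84 did without dsVg pool 5. Without normalization between arrays the SD ratio was 1.87 for miR-7 and 1.07 for miR-263b, with miR-263 between them. Without dsVg pool 5 the SD of miR-7 was 0.57 and that of miR-263 was 0.19, close to the control values of 0.55 and 0.22, while that of miR-263b was 0.55 against 0.37. In the dsVg group pool 5 was the single highest or lowest of the 12 pools for 34 of 84 miRNAs, pool 1 for 29 and pool 3 for 22. The remaining pools were so for 0 to 15. With its tie at 11.08 in dsVg pools 1 and 5, miR-263b has no single highest pool. Extreme values in dsVg pools 1 and 5 were thus not limited to the 3 miRNAs, and the cause was not tested.

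A ratio of 2 signals on the same array depends on the background correction but not on the scaling between arrays. The 3 possible ratios were therefore also compared. This comparison was chosen after the values were seen, and a ratio near 0 on the log2 scale does not mean equal abundance. The log2 ratio of miR-263b to miR-263 was narrow in dsGFP pools, at 0.070 (lowest), 0.14 (median) and 0.23 (highest). In dsVg pools it was -0.049, 0.44 and 1.01. Of the dsVg pools, 4 (pools 1, 2, 4 and 5) lay above all control pools, pool 6 lay within the control range, and pool 3 lay below it. The means were 0.14 ± 0.061 and 0.42 ± 0.36 (SD, n = 6 each), a difference of 0.27 (SE 0.15). The two-sided exact permutation p was 0.0628, and 0.188 after Benjamini-Hochberg adjustment over the 3 ratios. With 1 pool left out, the unadjusted exact permutation p was 0.00649 without dsVg pool 3 (difference 0.37), 0.0433 without dsVg pool 6 (difference 0.33) and 0.0866 to 0.141 without any of the other 10 pools. Without dsVg pool 1 the difference was 0.16 (exact permutation p = 0.141), and without dsVg pools 1 and 5 it was 0.11 (exact permutation p = 0.305). In the authors' deposited values the difference was 0.31 (exact permutation p = 0.141). It was 0.22 without background correction and 0.33 with plain subtraction of the background. The highest ratio, 1.01 in dsVg pool 1, was 1.51 in the deposited values. In that pool miR-263 was only 1.61 times the detection threshold.

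The ratios with miR-7 were set by dsVg pool 5. The log2 ratio of miR-7 to miR-263 was 2.00 to 2.97 in dsGFP pools and 1.87 to 3.12 in the other 5 dsVg pools, against -1.42 in pool 5. Its difference between groups was -0.43 (SE 0.72, exact permutation p = 0.829), and 0.26 without that pool. The log2 ratio of miR-7 to miR-263b was 1.86 to 2.83 in dsGFP pools and 2.44 to 2.78 in dsVg pools 2, 3, 4 and 6, against 0.86 in pool 1 and -1.89 in pool 5. Its difference was -0.70 (SE 0.77, exact permutation p = 0.483), and -0.0077 without pool 5.

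**Figure D4:**
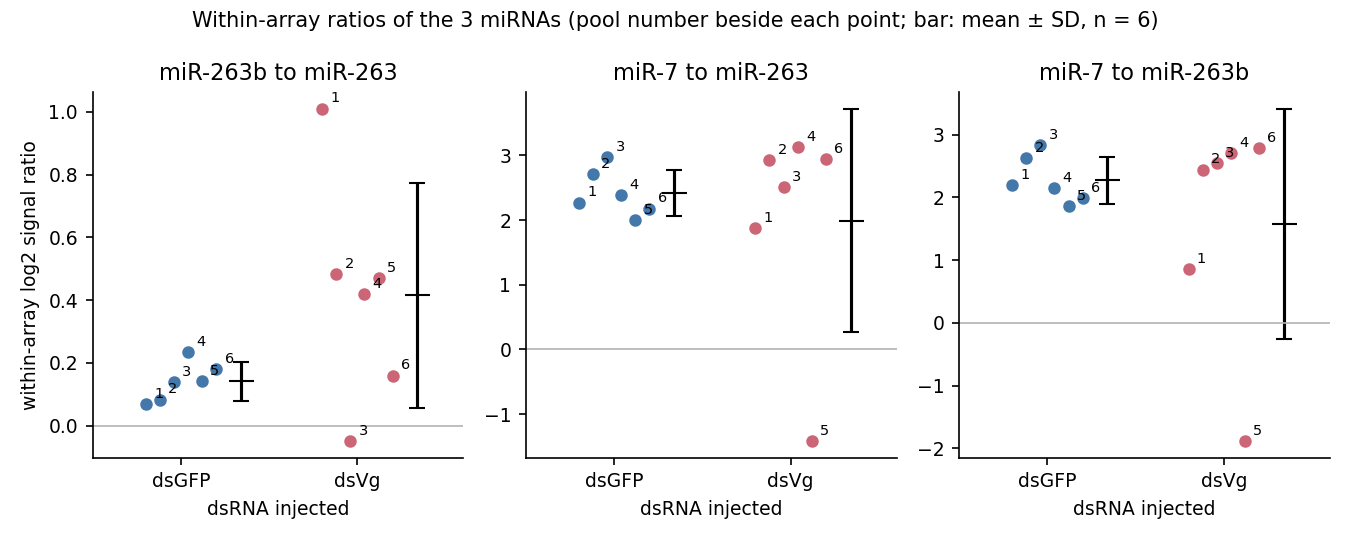
Within-array log2 ratios of the 3 pairs by group, with pool numbers beside the points and bars for the mean ± SD of 6 pools. The ratio of miR-263b to miR-263 spans 0.070 to 0.23 in control pools and -0.049 to 1.01 after knockdown, and pool 5 of the dsVg group is far below all others in both ratios with miR-7.

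The signals of the 3 miRNAs were also compared with each other across the 12 pools. The correlation of miR-263 with miR-263b was r = 0.67 (permutation p = 0.0138, adjusted p = 0.0415 over 3 pairs) and rho = 0.54 (permutation p = 0.0750, adjusted p = 0.225). Without the 2 pools farthest from the median of miR-263 (dsVg pool 5 and dsGFP pool 2) it was r = 0.21, so the size of r depends on the pools included. Pool 1 of the dsVg group, with miR-263 at 9.74 and miR-263b at 11.08, was kept in that value. Within the 6 dsGFP pools it was r = 0.88 and within the 6 dsVg pools r = 0.55, without a test. It was r = 0.99 within the 6 arrays with at most 80 detected miRNAs and r = -0.24 within the 6 with more. In the authors' deposited values it was r = 0.76 (permutation p = 0.00403, adjusted p = 0.0121) and rho = 0.76 (permutation p = 0.00536, adjusted p = 0.0161), and r = 0.46 without the same 2 pools. Within the groups the deposited values gave r = 0.99 (dsGFP) and r = 0.72 (dsVg).

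The correlation of miR-7 was r = -0.58 with miR-263 (permutation p = 0.0906) and r = -0.55 with miR-263b (permutation p = 0.0631), both with an adjusted p = 0.0906. The rho values were 0.20 (permutation p = 0.536, adjusted p = 0.536) and -0.32 (permutation p = 0.307, adjusted p = 0.461). Without dsVg pool 5 and dsGFP pool 3 the values of r were 0.24 and -0.47, so that of miR-7 with miR-263 rests on those pools. Within the dsGFP pools both were positive, at 0.38 and 0.39, and within the dsVg pools both were negative, at -0.77 and -0.75; the difference was not tested. Within the arrays with at most 80 detected miRNAs, which include dsVg pool 5, r was -0.79 and -0.78, and within the others 0.87 and -0.42.

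The miRNAs with the most similar pattern over the 12 pools, by Pearson correlation of the quantile-normalized signal among 83 others, were named for each of the 3. For miR-7 they were miR-279 (r = 0.87), bantam (r = 0.87) and miR-87 (r = 0.87). Without dsVg pool 5 these values were 0.52, 0.20 and 0.017, so the likeness rests on that pool. For miR-263 they were miR-3751 (r = 0.77), miR-2796 (r = 0.77) and miR-133 (r = 0.76), with 0.56, 0.67 and 0.57 without that pool. For miR-263b they were miR-989 (r = 0.89), miR-31a (r = 0.89) and miR-11 (r = 0.87), and these held 0.85, 0.84 and 0.86 without that pool. Without dsVg pools 1 and 5 the value for miR-11 was 0.87, against 0.66 for miR-989 and 0.63 for miR-31a. In the deposited table the miRNA most like miR-263 was miR-263b (r = 0.76).

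Other miRNAs with sensory or photoreceptor roles in flies were read from a fixed list, of which 8 were on the array and 6 were tested. Of these 6, 3 had higher and 3 had lower signals after knockdown, 0 passed the adjusted threshold in either direction, and the median difference was 0.078 against 0.025 over all 84 (limma adjusted p = 0.772 to 0.895). The difference of miR-279, which keeps neurons for carbon dioxide from forming on the fly's mouthparts, was -0.39 (SE 0.35), and that of its relative by name miR-279c was 0.51 (SE 0.35). For miR-996, which acts with miR-279 in flies, it was -0.026 (SE 0.088). For miR-9a, which limits the number of sensory precursors in flies, it was 0.18 (SE 0.22). For miR-210, a miRNA of fly photoreceptors, it was 0.32 (SE 0.30), but 0.56 with cyclic loess, 0.75 under scaling to the 75th percentile of all miRNAs, 0.77 in the authors' values, 0.88 with median scaling and 0.94 with no normalization between arrays (limma adjusted p of 0.437 to 0.982 under these settings). For miR-8, better known for growth control, it was -0.24 (SE 0.24). Without dsVg pools 1 and 5 the values of miR-279 (0.088), miR-279c (-0.027), miR-996 (0.0014), miR-210 (-0.072) and miR-8 (0.081) lay on the other side of 0, and that of miR-9a stayed on its side at 0.44 (limma adjusted p = 0.949). The remaining 2, miR-9b and miR-279b, were detected on 2 and 5 arrays and were not tested.

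Markers of neurons and of tissue that could come along with the brain were read beside these values, as sums of the authors' deposited values. The neuronal miR-124 was detected on all 12 arrays, at 300 to 742 in dsGFP pools and 386 to 1977 in dsVg pools, with 1391 in pool 1 and 1977 in pool 5. Of the 2 muscle miRNAs 1 was detected on all arrays and the other on 11, with sums of 282 to 783 and 235 to 570 (235 in pool 1 and 570 in pool 5). Of the 4 miRNAs of gut, fat body and endocrine tissue 1 was detected on all arrays, and miR-750 on only 6. Their sums were 598 to 1002 and 688 to 1709 (1461 in pool 1 and 1709 in pool 5). No sum was at 0, which does not show that each member was above background. The marker lists held none for retina or antenna. The miRNA of fly photoreceptors, miR-210, is given above with the sensory list. Among the miRNAs most like the pair, miR-133 belongs to the muscle list and miR-989 to the gut, fat body and endocrine list. After quantile normalization the neuronal miR-124 (0.85), miR-133 (0.57), miR-989 (0.48), miR-275 (0.61) and miR-750 (0.11) were higher after knockdown. Lower were miR-1 (-0.90) and miR-375 (-0.38). None of these markers passed the adjusted threshold (limma adjusted p = 0.622 to 0.772). The neuronal and gut sums were high in the same dsVg pools as miR-263b. Within the dsVg group the muscle sum was lowest in pool 1 (235) and highest in pool 5 (570). A sum does not show whether the members of its list moved alike. The part of these markers in the values of miR-263b was not tested. In bulk RNA, fewer cells of a type and less of a miRNA per cell cannot be told apart.

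Base composition moved with the same pools. The rank correlation of a pool's deviations with the GC content of the miRNA, across the 33 miRNAs detected on all arrays, was 0.47 in dsVg pool 1 and 0.56 in dsVg pool 5, against -0.51 to 0.17 in the other 10 pools. The GC content was 34.8% for miR-7, 41.7% for miR-263 and 47.6% for miR-263b. Among the 3, miR-7, with the lowest GC content, lay in those 2 pools below all other pools, and miR-263b, with the highest, lay above them. The values of miR-263 were not alike in the 2 pools. It was the highest of all pools in dsVg pool 5 (10.65) but within the control range in dsVg pool 1 (9.74). All 3 are themselves among the 33 miRNAs. The part of base composition in these values was not tested.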

How the data were processed

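Per the labels' protocols, small RNA was tailed, tagged and stained with Cy3 by a service provider, 1 colour per array. Per the file headers, the scanner tables hold spot intensity on a linear scale; the authors' deposited table holds processed intensity made by a normalization not given in the sources used here. Background was corrected by normexp (offset 50) over every spot with limma 3.58.1 and R 4.3.3, log2 values of the 18 spots were averaged, and the 168 miRNAs were quantile-normalized. The 84 miRNAs detected on at least 6 of 12 arrays were fitted with lmFit and eBayes, with Benjamini-Hochberg adjustment, dsVg minus dsGFP. For single values over all 12 pools, exact two-sided permutation p-values were taken over 924 assignments of pools to groups. Correlations used 100000 permutations. Fits without a pool used the same normalized values. The fit was tested on simulated data. Precision is limited by the 12 arrays. The 3 miRNAs and the lists were chosen with earlier results of these data known; the rule named the 3, the tested members of the sensory list and the 3 most similar miRNAs of each. Same-numbered pools of the 2 groups were not treated as pairs. Their deviations correlated above 0.1 for 2 of 6 numbers (0.14 for number 4 and 0.53 for number 6), which cannot settle whether the numbers mark pairs. Results with the pool number as a block are given below.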

Additional observations from a re-analysis of the deposited data

Results flagged for a closer look

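Among 24 sets of 6 pools examined for the 3 miRNAs and their ratios, 5 held a pool far from the rest by Dixon's criterion, which chance alone meets in about 1 group in 20. The sets share pools and are not independent. In the dsGFP group, pool 3 was high for miR-7, at 13.49 in quantile-normalized log2 signal (next pool 12.41) and at 12.64 in log2 of the deposited value (next pool 11.68). In the dsVg group, pool 5 was low for miR-7 in the deposited values, at 8.23 (next pool 10.89), and low in the log2 ratio of miR-7 to miR-263, at -1.42 (next pool 1.87). The same pool was high for miR-263 in the deposited values, at 10.31 (next pool 9.10). The cause was not tested.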

How the results depend on the processing

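The main limits are dsVg pools 1 and 5, the scaling between arrays and, for miR-7, a signal near background in dsVg pool 5. Of 32 alternatives, the direction held in 28 for miR-7, 28 for miR-263 and 30 for miR-263b, and none of the 3 passed the adjusted threshold under any (limma adjusted p of at least 0.562, 0.612 and 0.449). The difference of miR-7 turned to 0.40 with array weights, 0.35 without dsVg pools 1 and 5, and 0.11 without dsGFP pool 1 and dsVg pool 5. That of miR-263 turned to -0.042 and -0.31 under scaling to the 75th percentile of all or of detected miRNAs, -0.100 with cyclic loess and -0.018 within the arrays with over 80 detected miRNAs. That of miR-263b turned to -0.043 without dsVg pools 1 and 5 and -0.038 under scaling to the 75th percentile of detected miRNAs. With 1 pool left out, miR-7 ran from -0.65 (without dsVg pool 4) to 0.12 (without dsVg pool 5), miR-263 from 0.036 to 0.27 and miR-263b from 0.18 to 0.45.

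For the sensory list, scaling to the 75th percentile of detected miRNAs gave -0.027 for miR-9a and -0.037 for miR-279c. Without dsVg pools 1 and 5, miR-279 was at 0.088, miR-279c at -0.027, miR-996 at 0.0014, miR-210 at -0.072 and miR-8 at 0.081, and miR-8 was at 0.11 with array weights. For miR-996 the value was 0.0024 with cyclic loess, 0.033 without normalization, 0.095 with plain subtraction, 0.086 within the arrays with over 80 detected miRNAs and 0.0097 without dsGFP pool 1 and dsVg pool 5, and -0.062 to 0.018 with 1 pool left out. The log2 ratio of miR-263b to miR-263 stayed above 0 in all 22 alternatives (0.11 to 0.37). That of miR-7 to miR-263 turned to 0.46 without dsVg pools 1 and 5, to 0.23 without dsGFP pool 1 and dsVg pool 5, and ran from -0.65 to 0.26 with 1 pool left out. That of miR-7 to miR-263b turned to 0.34 without dsVg pools 1 and 5. The list of the 3 miRNAs most like each kept 1, 0 and 1 of 3 names in the deposited table.

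Limma called 0 miRNAs in 31 of 32 alternatives, some of which tested more or fewer than 84, and 1, none of the 3 described here, with array weights. At an unadjusted limma p under 0.05 the count was 3, and 1 to 12 over the alternatives (12 with array weights or with dsVg pool 3 left out, 8 with dsVg pool 6 left out, 1 with dsVg pool 1, dsGFP pool 1 or dsGFP pool 5 left out). With the pool number as a block (replicate block) the differences were the same (-0.42, 0.18 and 0.32, limma adjusted p = 0.788, 0.753 and 0.753), and the ratio of miR-263b to miR-263 had an exact permutation p = 0.188. Deviations of same-numbered pools correlated at -0.27 to 0.53, above 0.1 for 2 of 6 numbers, and 1 of 6 control pools correlated best with its own number. The alternatives without dsGFP pool 1 and dsVg pool 5, the percentile of detected miRNAs and all those of the ratios and of the sensory list were added after the data were seen. The causes of these changes were not tested.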
